A study of Mus musculus with 64 samples.

Results

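Colon of mice that carried a microbiota was compared with colon of mice that did not, after both had been injected with vancomycin. The members were the 32 vancomycin libraries of a series of 64, chosen by their labels: 16 from specific pathogen free (SPF) mice, which carry a gut microbiota without listed pathogens, and 16 from germ-free (GF) mice, which are raised without microbes. All mice were wild-type Swiss Webster, an outbred stock, 8 to 12 weeks old, kept in 12 h of light and 12 h of dark on standard chow. Every mouse in these 32 libraries received 2.5 mg vancomycin in 100 µl PBS into the peritoneum, 2 times a day for 3 days and once on day 4. The GF mice left their isolators for ISOcages, a sealed cage system, during this time. The times of collection, in hours after lights on (zeitgeber time, ZT), were 5, 11, 17 and 23, with 4 SPF and 4 GF libraries at each time, and the other 32 libraries came from mice given PBS alone. Whether every library is a separate animal is not stated in the labels, so the p-values reflect spread between libraries, which may be technical.

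The colon lining is in steady contact with bacteria, and its cells read them through receptors such as Toll-like receptors and CD14, which lead to NF-kB signalling. Microbes are known to raise antimicrobial proteins, reactive oxygen and nitrogen enzymes, IgA and lymphoid follicles in the gut wall, and germ-free animals are known for a thin mucosal immune system and altered lipid, bile acid and xenobiotic handling. Vancomycin stops Gram-positive bacteria from building their cell wall and crosses poorly between blood and gut lumen. How many bacteria were left in the SPF mice was not measured in these files, so the comparison is of 2 kinds of colon after the same injections.

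The SPF and GF libraries stand in separate tables, treated here as separate batches, and come from mice kept apart, so housing, colony and table cannot be told apart in anything that follows. The total of estimated counts was 10044000 to 13615800 for SPF libraries and 11814400 to 14892600 for GF libraries. Levels are given as CPM (estimated counts scaled to a library's effective size) after joint TMM scaling of the 32 libraries. The tissue label held: Muc2, the main mucin of colon goblet cells, was at 1953 CPM or more in every library, and Cdh17, an intestinal cadherin, at 332 or more. Of small intestine genes, Lct did not pass 2.80 CPM and Apoa4 did not pass 2.85, while Sis reached 32.7 CPM in 1 GF library.

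The GF libraries were a mixed set in 2 respects. A colon position score, the mean log2 CPM of distal minus proximal Hox genes, spanned 1.28 to 2.81 among SPF libraries and -3.25 to 2.83 in GF libraries. Only 7 of the 16 GF libraries lay within the SPF range, and 7 lay below 0, where proximal Hox genes were the higher. Expression of Y-linked genes was seen in each of the 16 SPF libraries but in only 7 of 16 from GF mice. Ddx3y, an RNA helicase gene on the Y chromosome, was at 39.6 CPM or more in those and at 0.401 or less in the other 9, although Uty, another gene of that chromosome, reached 81.9 CPM among those 9. The 5 GF libraries that met both conditions were 1 of ZT5 (replicate 4), 2 of ZT11 (replicates 2 and 4), 2 of ZT17 (replicates 3 and 4) and none of ZT23. A matched value below is from a fit of housing plus time of day to these 5 GF and the 16 SPF libraries. With no GF library at ZT23, the SPF libraries of ZT23 entered the estimate of spread in that fit but not the housing difference.

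**Figure D1:**
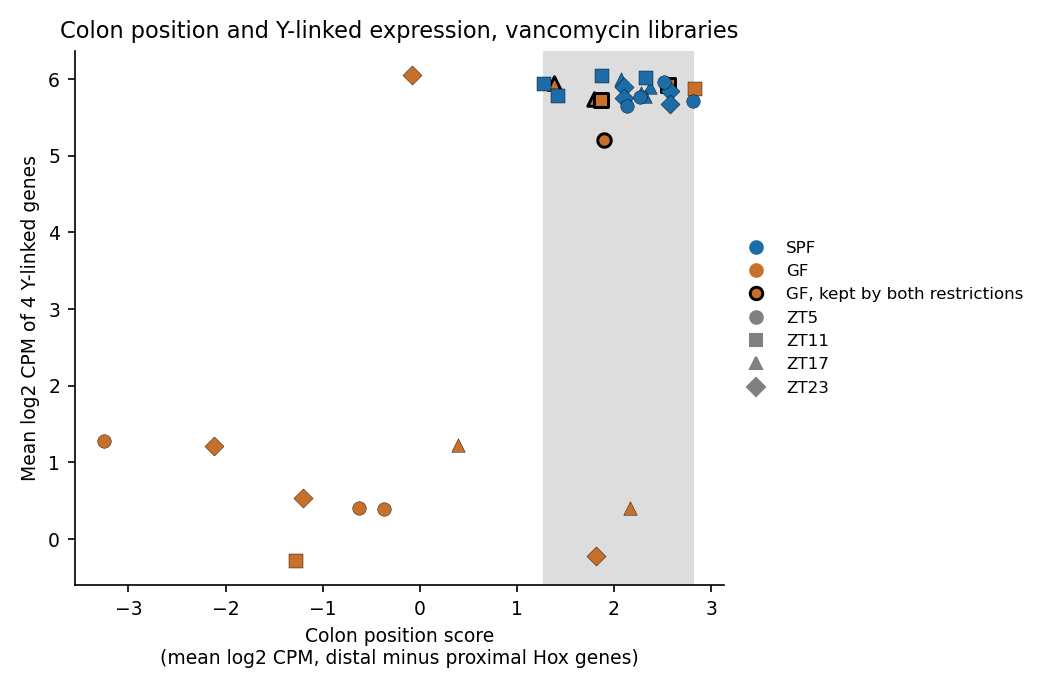
Colon position score (x axis, log2 units) against the mean log2 CPM of 4 Y-linked genes (y axis) in the 16 SPF and 16 GF vancomycin libraries, with the time of day as the symbol and the range of the SPF libraries shaded. The SPF libraries form 1 tight group, the GF libraries spread over both axes, and the 5 GF libraries with a heavy outline lie within the SPF range of the position score.

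Over the 4 times, 4374 of 17000 genes tested differed between SPF and GF colon (edgeR quasi-likelihood test, adjusted p under 0.05), which is 25.7% of them. Of these, 2047 (12.0%) were higher and 2327 (13.7%) were lower in SPF colon. With upper quartile scaling the split was 2515 higher and 1874 lower, so the balance between the directions depends on the scaling. A fold of 2 or more was reached by 1159 of the called genes, 723 higher and 436 lower. Most of the differences were shifts within overlapping ranges: the 16 SPF and the 16 GF libraries did not overlap at all for 12 genes (0.0706%), with SPF above GF for 5 (0.0294%) and below for 7 (0.0412%). The matched comparison called 1122 genes (6.60%), and 848 genes were called in both with the same direction, 319 higher and 529 lower in SPF colon. Across all genes tested the median log2 fold change (SPF over GF) was -0.027, and -0.0036 in the matched comparison, the values against which each list below is read. Counts of list members are read against the shares of all genes called higher and lower, and the matched counts against 2.51% higher and 4.09% lower.

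Genes of the epithelial defence against microbes were led by a small set that was many times higher in SPF colon. Cd14 (ENSMUSG00000051439), the co-receptor that passes bacterial lipopolysaccharide to Toll-like receptor 4, ranged from 57.3 to 232 CPM (median 149.7) in SPF libraries and from 17.4 to 50.4 CPM (median 29.8) in GF libraries. No GF library reached the lowest SPF library, and the log2 fold change was 2.12 ± 0.16 (SE, adjusted p = 7.69e-10), with a matched value of 2.12 ± 0.24 (adjusted p = 7.81e-05). Mptx1 (ENSMUSG00000026531), a mucosal pentraxin secreted by goblet-type cells, ranged from 779.6 to 4282 CPM (median 1599) in SPF libraries and from 44.0 to 800.1 CPM (median 146) in GF libraries. The ranges touched at 1 GF library, ZT23 replicate 3, and the log2 fold change was 3.15 ± 0.32 (SE, adjusted p = 2.83e-07; matched 3.35 ± 0.40, adjusted p = 0.000142). Ang4 (ENSMUSG00000060615), a bactericidal ribonuclease, ranged from 15.4 to 198 CPM (median 62.9) in SPF libraries and from 0.147 to 26.3 CPM (median 3.32) in GF libraries, a log2 ratio of 3.21 ± 0.53 (SE, adjusted p = 0.000132; matched 3.37 ± 0.67, adjusted p = 0.00684). For this gene 1 SPF library, ZT5 replicate 2, lay below the highest GF library.

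Enzymes that make reactive oxygen and nitrogen were higher too. Nos2 (ENSMUSG00000020826), the inducible nitric oxide synthase, ranged from 0.956 to 27.2 CPM (median 9.71) in SPF libraries and from 0.144 to 8.21 CPM (median 0.987) in GF libraries, and differed by 2.85 ± 0.47 (SE, adjusted p = 0.000134) on the log2 scale (matched 3.26 ± 0.73, adjusted p = 0.0144). Duoxa2 (ENSMUSG00000027225), the maturation factor that brings the hydrogen peroxide enzyme DUOX2 to the cell surface, ranged from 3.68 to 46.9 CPM (median 11.7) in SPF libraries and from 0.561 to 19.4 CPM (median 3.08) in GF libraries. Its log2 fold change was 2.10 ± 0.31 (SE, adjusted p = 3.77e-05; matched 2.25 ± 0.48, adjusted p = 0.0107). Duox2 itself ranged from 51.5 to 290.2 CPM (median 121) in SPF libraries and from 12.3 to 202 CPM (median 67.6) in GF libraries, a smaller difference of 0.84 ± 0.21 (SE, adjusted p = 0.00495; matched 1.37 ± 0.30, adjusted p = 0.0136), with wide overlap of the groups. Tifa, an adaptor through which bacterial sugar phosphates reach NF-kB, ranged from 19.95 to 90.3 CPM (median 44.0) in SPF libraries and from 7.77 to 33.7 CPM (median 21.6) in GF libraries, with a log2 ratio of 1.20 ± 0.20 (SE, adjusted p = 0.000116; matched 1.03 ± 0.29, adjusted p = 0.0425). Cd14, Mptx1, Ang4, Nos2, Duoxa2 and Tifa passed the test under all 16 other settings and in all 32 fits that left out 1 library.

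**Figure D2:**
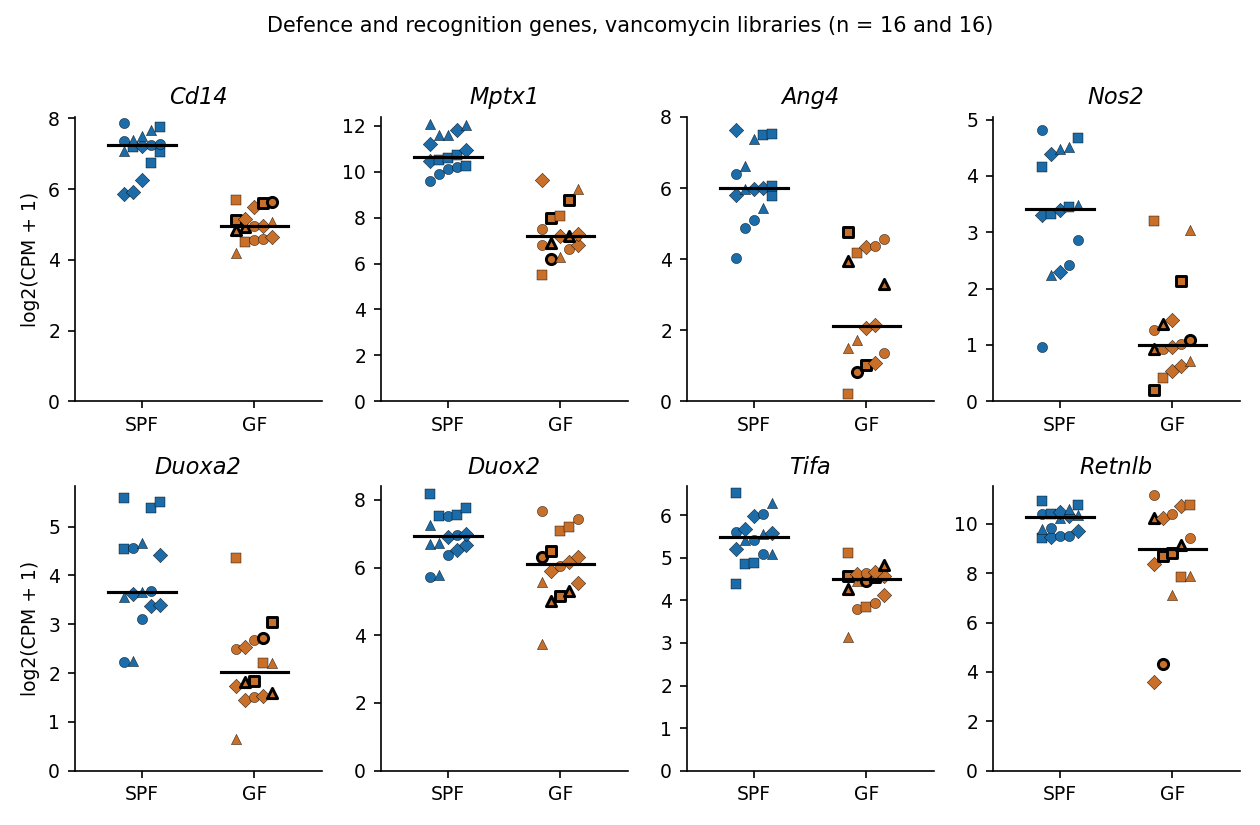
Levels of 8 defence and recognition genes as log2(CPM + 1) (y axis, from 0) in the 16 SPF and 16 GF vancomycin libraries, with symbols for time of day as circles (ZT5), squares (ZT11), triangles (ZT17) and diamonds (ZT23), a line at each median and a heavy outline on the 5 matched GF libraries. Cd14 separates the groups fully, Mptx1 and Ang4 overlap at 1 SPF library each, Nos2 and Duoxa2 overlap more widely, and Retnlb overlaps over the whole SPF range.

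Several other microbe-responsive genes did not pass the test after vancomycin. Of 34 genes tested on the defence list, 11 were higher and 2 lower in SPF colon, with a median log2 fold change of 0.43. In the matched comparison 7 were higher and 1 lower. Retnlb, a goblet cell protein that kills Gram-negative bacteria, ranged from 679 to 1953 CPM (median 1233) in SPF libraries and from 11.1 to 2273 CPM (median 508) in GF libraries, with a log2 ratio of 0.60 ± 0.46 (SE, adjusted p = 0.365). The SPF libraries lay close together, while the GF libraries included both the lowest and the highest values of the 32. Reg3g, a lectin that kills Gram-positive bacteria, was low in most libraries of both kinds, with medians of 1.24 and 0.926 CPM and single libraries up to 72.5 and 103 CPM (-0.67 ± 0.75 SE, adjusted p = 0.549). Reg3b gave -1.64 ± 1.24 (SE, adjusted p = 0.356). These 3 genes did not pass in the matched comparison either, where Retnlb was at 1.56 ± 0.50 (adjusted p = 0.0638), Reg3g at 3.05 ± 1.21 (adjusted p = 0.128) and Reg3b at 5.02 ± 2.08 (adjusted p = 0.144). With the position score as a covariate, the values were 5.17 (adjusted p = 0.00923) for Reg3b, 3.01 (adjusted p = 0.0118) for Reg3g and 1.92 (adjusted p = 0.0720) for Retnlb. Retnlb was at 2.15 (adjusted p = 0.0380) with only the GF libraries within the SPF range of that score. The acute phase genes Saa1 (-0.11 ± 0.21 SE, adjusted p = 0.742) and Saa3 (0.42 ± 0.28 SE, adjusted p = 0.297) and the fucosyltransferase gene Fut2 (0.18 ± 0.13 SE, adjusted p = 0.332) had values within the spread of the libraries. Saa1 and Saa2 are near-identical copies, so their separate counts are uncertain, and their summed level had a median of 1974 CPM in SPF and 2263 CPM in GF libraries. Il18, an epithelial cytokine, gave 1.09 ± 0.32 (SE, adjusted p = 0.0129) over all libraries and 0.37 ± 0.28 (adjusted p = 0.458) matched.

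Cd14 stood apart among the genes of pattern recognition and NF-kB. Of 33 such genes, 8 were higher and 5 lower in SPF colon, and the list median was 0.043. The share lower was close to that of all genes. Nfkbia, the NF-kB inhibitor that NF-kB itself induces, ranged from 73.9 to 143 CPM (median 105) in SPF libraries and from 58.2 to 113 CPM (median 74.0) in GF libraries, and was higher by 0.53 ± 0.10 (SE, adjusted p = 0.000599; matched 0.53 ± 0.15, adjusted p = 0.0378). Casp1, the caspase that matures interleukins 1 and 18, was lower, at -0.39 ± 0.10 (SE, adjusted p = 0.00693; matched -0.52 ± 0.14, adjusted p = 0.0368). Sigirr, a negative regulator of interleukin 1 and Toll-like receptors that was picked after its values were seen, was lower, at -0.30 ± 0.097 (SE, adjusted p = 0.0249; matched -0.45 ± 0.11, adjusted p = 0.0169). Those were the only genes of the list besides Cd14 that were called in the same direction in both comparisons. Tlr9, a sensor of bacterial DNA that B cells also carry, gave 1.82 ± 0.44 (SE, adjusted p = 0.00349), and 2.01 ± 0.69 (adjusted p = 0.0784) matched. Tlr2 (-0.32 ± 0.23 SE, adjusted p = 0.318) and Tlr5 (-0.15 ± 0.22 SE, adjusted p = 0.663), which sense lipoproteins and flagellin, did not pass the test.

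Lymphocyte genes were higher in SPF colon as a group, with very uneven levels from library to library. Of 20 B cell and lymphoid follicle genes, 18 were higher and 0 lower, with a median log2 fold change of 2.09. Ms4a1, the B cell surface protein CD20, ranged from 2.96 to 68.8 CPM (median 42.2) in SPF libraries and from 1.22 to 49.5 CPM (median 4.92) in GF libraries, a difference of 2.15 ± 0.48 (SE, adjusted p = 0.00196). Cd79a, a signalling chain of the B cell receptor, gave 2.53 ± 0.62 (SE, adjusted p = 0.00368; matched 2.43 ± 0.71, adjusted p = 0.0470), and Ltb, a cytokine that organises follicles, gave 2.03 ± 0.47 (SE, adjusted p = 0.00259). The summed level of the 20 genes spanned 53.1 to 1326 CPM in SPF libraries and 11.5 to 1393 CPM in GF libraries, so the groups overlapped over nearly the whole range. In the 5 matched GF libraries that sum lay between 84.8 and 799 CPM. The matched median was of like size (1.97), but 2 of the 20 genes passed there. In whole colon, more cells of a type and more RNA per cell cannot be told apart, and how many follicles each piece of tissue held was not given in the sources used here.

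T cell genes were higher in SPF colon, in part also when libraries were matched. Of 28 T and NK cell genes, 18 were higher and 0 lower over all libraries, and 6 were higher in the matched comparison. Cd5, a regulator of T cell receptor signalling, ranged from 0.329 to 28.7 CPM (median 5.34) in SPF libraries and from 0 to 4.63 CPM (median 0.237) in GF libraries, a log2 ratio of 3.41 ± 0.65 (SE, adjusted p = 0.000459; matched 3.74 ± 0.99, adjusted p = 0.0306). Cd2, an adhesion receptor of T cells, was higher by 2.52 ± 0.50 (SE, adjusted p = 0.000668; matched 2.92 ± 0.71, adjusted p = 0.0212), and Cd3d, a chain of the T cell receptor complex, by 2.36 ± 0.57 (SE, adjusted p = 0.00357; matched 2.93 ± 0.86, adjusted p = 0.0482). Cd4 gave 2.54 ± 0.66 (SE, adjusted p = 0.00605) and 3.19 ± 1.09 (adjusted p = 0.0785) matched. Summed over the list, SPF libraries lay between 101 and 832 CPM and GF libraries between 71.8 and 396 CPM, so the lowest SPF libraries were within the GF range. With the B cell score as a covariate, Cd5 had 1.20 (adjusted p = 0.178) and Cd2 0.63 (adjusted p = 0.214), and neither passed. Over all genes that covariate took the count of calls from 4374 to 686, so lost calls were common and not particular to this list or those below.

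Antibody genes followed. Of 18 IgA and plasma cell genes, 11 were higher and 0 lower in SPF colon (median 1.20, matched 0.66). Igha, the constant chain of IgA, ranged from 192 to 944 CPM (median 548) in SPF libraries and from 7.29 to 445 CPM (median 175) in GF libraries, with a log2 ratio of 1.39 ± 0.37 (SE, adjusted p = 0.00730) and a matched value of 0.91 ± 0.37 (adjusted p = 0.133). Jchain, which joins IgA into dimers, went from a median of 48.6 CPM in GF to 155 CPM in SPF libraries (1.56 ± 0.35 SE, adjusted p = 0.00212; matched 1.10 ± 0.36, adjusted p = 0.0690). IgA transcripts were detected in every GF library, at 7.29 CPM in the lowest. Irf4, a transcription factor of plasma cells and activated lymphocytes, was the member called in both comparisons, at 1.77 ± 0.37 (SE, adjusted p = 0.00117) and 1.77 ± 0.49 (adjusted p = 0.0359). Pigr, the receptor that carries IgA across the epithelium, gave 0.36 ± 0.12 (SE, adjusted p = 0.0291) over all libraries and 0.031 ± 0.11 (adjusted p = 0.902) matched. With the B cell score as a covariate the value of Igha was 0.87 (adjusted p = 0.308) and that of Irf4 0.64 (adjusted p = 0.135).

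Genes of antigen presentation by MHC class II, which B cells, macrophages and dendritic cells carry, were higher too. Of 12 class II genes, 11 were higher and 0 lower in SPF colon, with a median of 1.78 (matched 1.60, 2 called). Cd74, the invariant chain of class II, ranged from 96.5 to 1499 CPM (median 680.3) in SPF libraries and from 54.5 to 976 CPM (median 113) in GF libraries, a difference of 1.81 ± 0.41 (SE, adjusted p = 0.00215) and 1.71 ± 0.57 (adjusted p = 0.0740) matched. H2-Ab1, a class II chain, gave 1.67 ± 0.36 (SE, adjusted p = 0.00133), and 1.49 ± 0.51 (adjusted p = 0.0760) matched. H2-DMb2, which loads peptides on class II, was higher in both, by 1.88 ± 0.40 (SE, adjusted p = 0.00126) and 1.72 ± 0.50 (adjusted p = 0.0472). Class I genes gave smaller values: the 2 of highest mean, H2-K1 and H2-D1, had 0.0076 and -0.0074 on the log2 scale. Of 17 class I and antigen processing genes, 6 were higher and 0 lower, against 0 higher and 1 lower in the matched comparison. Macrophage and dendritic cell genes were higher in 9 and lower in 1 of 22 cases over all libraries, with 0 called in the matched comparison. With the B cell score as a covariate, Cd74 had a value of 0.41 (adjusted p = 0.263) and H2-Ab1 of 0.45 (adjusted p = 0.151), so both calls were lost, as were most calls over all genes.

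Cytokine and chemokine genes were higher in 9 of 20 cases and lower in 0, and 3 of them were higher when matched. Ccl21a, made by lymphatic vessels and follicle stroma to draw T cells and dendritic cells, ranged from 36.9 to 163 CPM (median 86.2) in SPF libraries and from 6.59 to 74.9 CPM (median 41.3) in GF libraries, a difference of 1.24 ± 0.25 (SE, adjusted p = 0.000933; matched 1.23 ± 0.28, adjusted p = 0.0165). Ccl8, a monocyte chemokine, was near the limit of detection in GF colon, with a median of 0.552 against 1.75 CPM in SPF colon (1.66 ± 0.20 SE, adjusted p = 4.08e-06; matched 1.64 ± 0.48, adjusted p = 0.0449). The third was Cxcl12, a stromal chemokine picked after its values were seen, at 0.34 (adjusted p = 0.0358) and 0.62 (adjusted p = 0.0222). Ccl21a had 0.62 (adjusted p = 0.252) with the B cell score as a covariate. Cxcl9, a T cell chemokine induced by interferon gamma, ranged from 0.329 to 23.5 CPM (median 3.70) in SPF libraries and from 0.135 to 4.40 CPM (median 0.531) in GF libraries, a log2 ratio of 2.43 ± 0.49 (SE, adjusted p = 0.000834), which missed the threshold in the matched comparison (1.82 ± 0.97, adjusted p = 0.264). Pecam1 and Cldn5, an adhesion protein and a tight junction protein of vessel endothelium, were higher by 0.79 ± 0.12 (SE, adjusted p = 4.59e-05) and 0.82 ± 0.17 (SE, adjusted p = 0.00104), and by 1.14 ± 0.17 (adjusted p = 0.000794) and 1.06 ± 0.20 (adjusted p = 0.00450) matched. Cldn5 stood on the tight junction list. Of 12 genes of the endothelial list, 1 (Pecam1) was higher and 1 lower over all libraries, against 7 higher in the matched comparison.

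More interferon-stimulated genes were called lower than higher in SPF colon. Of 51 such genes, 7 were higher and 13 lower, with a median of -0.14, and the matched comparison called 0 higher and 5 lower. The share higher was close to that of all genes. Irf7, the transcription factor that amplifies type I interferon, ranged from 50.6 to 258 CPM (median 129) in SPF libraries and from 81.8 to 710.0 CPM (median 272) in GF libraries, and was lower in SPF colon, at -1.21 ± 0.20 (SE, adjusted p = 0.000113; matched -0.91 ± 0.23, adjusted p = 0.0274). Oas2, a sensor of double-stranded RNA, was lower, at -1.76 ± 0.43 (SE, adjusted p = 0.00373; matched -2.51 ± 0.60, adjusted p = 0.0198), its relative Oasl2 at -1.10 ± 0.28 (SE, adjusted p = 0.00521; matched -1.45 ± 0.38, adjusted p = 0.0309) and Ifi44 at -1.69 ± 0.37 (SE, adjusted p = 0.00184; matched -2.25 ± 0.52, adjusted p = 0.0165). Gbp9, a guanylate-binding GTPase, had the opposite sign, at 1.35 ± 0.33 (SE, adjusted p = 0.00401), and 1.003 ± 0.61 (adjusted p = 0.338) matched. Sequence shared within the Oas, Gbp and Ifi families makes the division of reads between copies uncertain. Medians hid wide spread here: the 16 GF libraries held 4.30 to 209.8 CPM of Oas2, and the SPF libraries 1.98 to 58.7 CPM. Of 11 genes of mast cells, eosinophils and neutrophils, 2 were higher and 2 lower, and 1 was higher and 2 lower when matched. Among these, Mcpt2, a protease of mucosal mast cells, was lower in SPF colon (-2.72 ± 0.50 SE, adjusted p = 0.000387; matched -4.25 ± 0.55, adjusted p = 0.000318), with an SPF maximum of 1.41 CPM against a GF maximum of 14.3 CPM.

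The 2 metallothionein genes, whose small proteins bind zinc and copper, were lower in SPF colon. Mt1 (ENSMUSG00000031765) ranged from 44.5 to 272 CPM (median 81.8) in SPF libraries and from 120.4 to 507 CPM (median 248) in GF libraries, and differed by -1.43 ± 0.16 (SE, adjusted p = 8.19e-07; matched -1.44 ± 0.30, adjusted p = 0.00942). Mt2 (ENSMUSG00000031762) ranged from 3.40 to 103 CPM (median 20.9) in SPF libraries and from 19.7 to 249 CPM (median 90.4) in GF libraries, and differed by -2.07 ± 0.22 (SE, adjusted p = 7.50e-07; matched -1.83 ± 0.47, adjusted p = 0.0277). Most SPF libraries lay below most GF libraries, and the highest SPF library of both genes was replicate 4 of ZT17. At ZT17 the difference was -0.71 for Mt1 and -0.74 for Mt2, against -2.31 and -3.26 at ZT11. The test of whether the difference changed with time gave an adjusted p of 0.288 for Mt1 and 0.216 for Mt2, so a change with time was not shown. The other genes of that list, which respond to glucocorticoids, were called in 1 case higher and, with Mt1 and Mt2, in 4 lower of 13.

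More genes that handle foreign compounds were lower than higher in SPF colon. Of 43 genes of xenobiotic metabolism and targets of the aryl hydrocarbon receptor, 18 were lower and 3 higher, with a median of -0.41. The matched comparison had 7 lower, 0 higher and a median of -0.52. Cyp4f14 (ENSMUSG00000024292), a cytochrome P450 that oxidises leukotriene B4 and fatty acids, ranged from 25.02 to 306 CPM (median 70.9) in SPF libraries and from 145 to 974 CPM (median 459.7) in GF libraries, a log2 ratio of -2.40 ± 0.29 (SE, adjusted p = 2.59e-06; matched -2.46 ± 0.45, adjusted p = 0.00395). Cyp2s1, a P450 that the aryl hydrocarbon receptor induces, ranged from 51.2 to 119.6 CPM (median 72.9) in SPF libraries and from 85.9 to 266 CPM (median 143) in GF libraries, and was lower, at -1.01 ± 0.14 (SE, adjusted p = 2.64e-05; matched -0.72 ± 0.16, adjusted p = 0.0143). Ephx2, the soluble epoxide hydrolase, was lower, at -0.84 ± 0.13 (SE, adjusted p = 4.21e-05; matched -0.77 ± 0.21, adjusted p = 0.0322). Cyp4b1, a large value on the list, shrank once libraries were matched, going from -4.48 ± 0.65 (SE, adjusted p = 3.00e-05) to -0.85 ± 0.38 (adjusted p = 0.182).

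Cholesterol synthesis was lower in SPF colon in every gene of the list that passed. Of 22 genes, 11 were lower and 0 higher (median -0.36), and the matched comparison called 15 lower and 0 higher (median -0.55), 10 of them in both. The list median was further from 0 when libraries were matched. Nsdhl (ENSMUSG00000031349), a dehydrogenase that helps to remove methyl groups from sterols, ranged from 21.05 to 51.2 CPM (median 29.98) in SPF libraries and from 24.8 to 67.7 CPM (median 40.0) in GF libraries, and differed by -0.42 ± 0.10 (SE, adjusted p = 0.00332; matched -0.59 ± 0.11, adjusted p = 0.00504). The groups overlapped, with the lower GF libraries among the SPF libraries. Hmgcs1, an early enzyme of the pathway, ranged from 140.3 to 399 CPM (median 252) in SPF libraries and from 208 to 854 CPM (median 355) in GF libraries, a difference of -0.56 ± 0.14 (SE, adjusted p = 0.00468; matched -0.62 ± 0.13, adjusted p = 0.0118). Sqle, squalene epoxidase, was lower, at -0.54 ± 0.14 (SE, adjusted p = 0.00570; matched -0.71 ± 0.16, adjusted p = 0.0143). Srebf2, the transcription factor that drives the pathway, gave -0.13 ± 0.065 (SE, adjusted p = 0.154).

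Slc10a2, Slc51b and Slc51a, which carry bile acids, were lower in SPF colon over all libraries. Slc10a2 (ENSMUSG00000023073), the transporter that takes bile acids up from the lumen, ranged from 2.76 to 20.1 CPM (median 7.78) in SPF libraries and from 7.67 to 483 CPM (median 100.3) in GF libraries, a log2 ratio of -3.64 ± 0.50 (SE, adjusted p = 1.55e-05; matched -2.50 ± 0.63, adjusted p = 0.0251). Slc51b, a subunit of the transporter that exports them towards blood, ranged from 5.94 to 23.4 CPM (median 10.1) in SPF libraries and from 14.7 to 69.6 CPM (median 31.7) in GF libraries, and was lower, at -1.60 ± 0.21 (SE, adjusted p = 8.19e-06; matched -1.34 ± 0.24, adjusted p = 0.00322). Its partner Slc51a ranged from 0.806 to 651 CPM among GF libraries and fell short of the threshold when matched (-5.58 ± 0.81 SE, adjusted p = 2.84e-05; matched -1.93 ± 0.67, adjusted p = 0.0794). The summed level of the list was 418 to 769 CPM in SPF, 691 to 2261 CPM in all GF and 691 to 1009 CPM in the 5 matched GF libraries. Vdr, the vitamin D receptor, which bile acids also bind, was lower, at -0.57 ± 0.11 (SE, adjusted p = 0.000603; matched -0.52 ± 0.14, adjusted p = 0.0290). Of 13 genes, 6 were lower and 2 higher, against 3 and 0 matched.

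**Figure D3:**
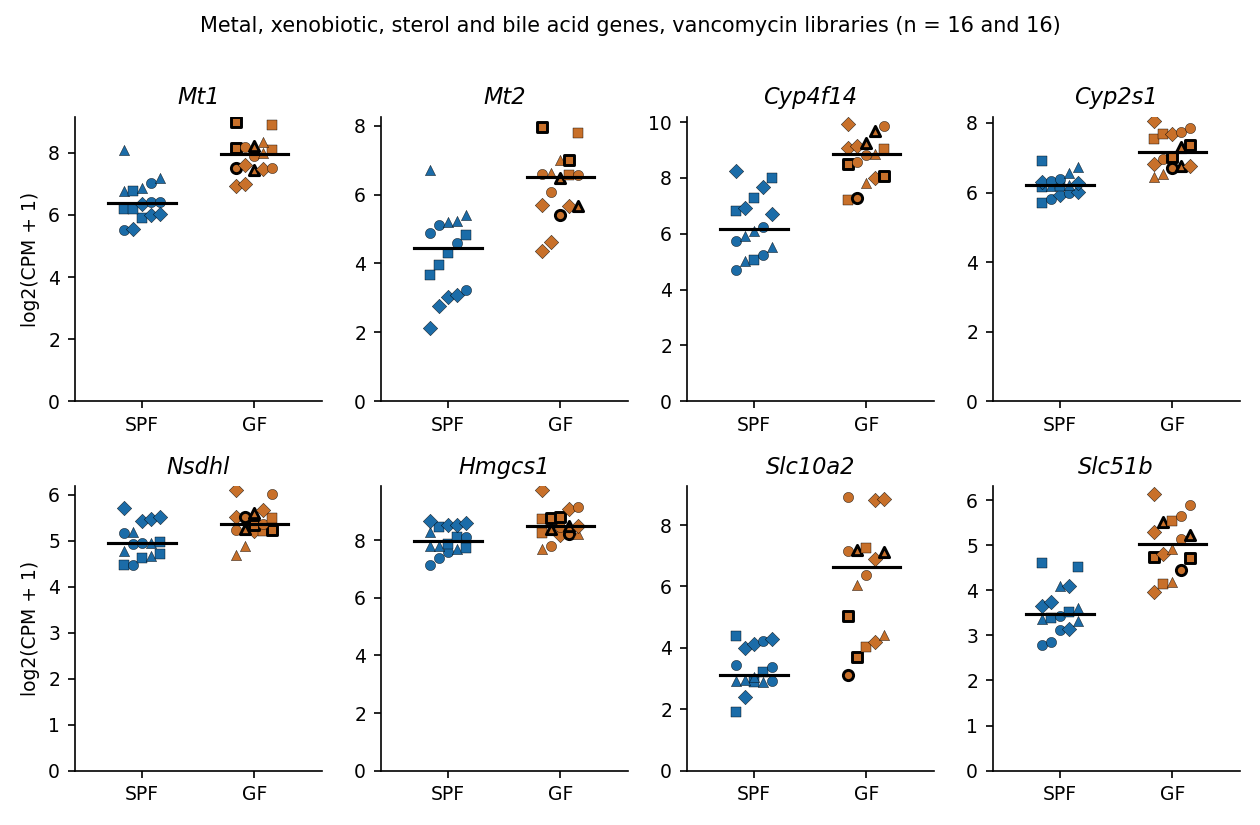
Levels of 8 genes that were lower in SPF colon, as log2(CPM + 1) (y axis, from 0), in the 16 SPF and 16 GF vancomycin libraries, with symbols for time of day as circles (ZT5), squares (ZT11), triangles (ZT17) and diamonds (ZT23), a line at each median and a heavy outline on the 5 matched GF libraries. The matched GF libraries sit above the SPF median in all 8 panels, except 1 library of Slc10a2 just below it, and Slc10a2 has the widest spread of GF values.

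Lipid and energy genes split by how they depended on matching. Of 18 genes of fatty acid and triglyceride synthesis, 12 were lower over all libraries and 2 in the matched comparison, the synthase gene Fasn (-0.98 ± 0.15 SE, adjusted p = 7.25e-05; matched -0.80 ± 0.14, adjusted p = 0.00387) and Dgat1, which makes triglycerides (-0.85 ± 0.12 SE, adjusted p = 1.40e-05; matched -0.64 ± 0.083, adjusted p = 0.000320). Scd1, a fatty acid desaturase picked after its values were seen, had -1.96 ± 0.44 (SE, adjusted p = 0.00200) over all libraries and the opposite sign matched (0.68 ± 0.37, adjusted p = 0.271). Fatty acid oxidation and ketogenesis had 13 of 29 genes lower over all libraries and 0 matched. Oxidative phosphorylation showed small differences in 1 direction: 9 of 29 genes were lower over all libraries and 10 matched, with none higher in either. Cox5a, a subunit of cytochrome oxidase, ranged from 162 to 279 CPM (median 209) in SPF libraries and from 219 to 323 CPM (median 267) in GF libraries (-0.35 ± 0.069 SE, adjusted p = 0.000602; matched -0.49 ± 0.088, adjusted p = 0.00347). Ndufa4 (-0.45 ± 0.079 SE, adjusted p = 0.000249; matched -0.51 ± 0.12, adjusted p = 0.0202) and Cox7a2 (-0.28 ± 0.067 SE, adjusted p = 0.00326; matched -0.49 ± 0.098, adjusted p = 0.00690) gave like values.

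Surface epithelium and transporters were lower in part. The absorptive colonocyte and ion transport list had 3 higher and 11 lower of 36 genes, against 0 and 3 when matched. For amino acid and peptide transport, 1 was higher and 4 lower of 17, against 1 and 1 when matched. Guca2a, the hormone guanylin, which sets fluid secretion, ranged from 682 to 2149 CPM (median 1107) in SPF libraries and from 1206 to 3447 CPM (median 2354) in GF libraries, and was lower in SPF colon, at -0.98 ± 0.17 (SE, adjusted p = 0.000165; matched -0.999 ± 0.23, adjusted p = 0.0148). Slc9a3, the sodium-proton exchanger, gave -1.21 ± 0.27 (SE, adjusted p = 0.00161) and -1.14 ± 0.38 (adjusted p = 0.0725) matched. Slc6a19, a transporter of neutral amino acids typical of small intestine, was at a median of 2.06 CPM in SPF and 28.3 CPM in GF libraries (-3.57 ± 0.60 SE, adjusted p = 0.000147; matched -3.21 ± 0.75, adjusted p = 0.0170). Slc7a11, the cystine-glutamate exchanger, was higher in SPF colon by 1.003 ± 0.17 (SE, adjusted p = 0.000140; matched 0.94 ± 0.24, adjusted p = 0.0279). Of 23 genes of enteroendocrine cells, the hormone-secreting cells of the epithelium, 1 was higher and 6 lower, and 1 was higher and 1 lower when matched. The gene that was higher over all libraries, Insl5, a hormone of colonic L cells, had a log2 ratio of 0.99 ± 0.35 (SE, adjusted p = 0.0368; matched -0.068 ± 0.19, adjusted p = 0.874). It missed the threshold without GF ZT5 replicate 1 (0.94, adjusted p = 0.0541) or 2 (0.92, adjusted p = 0.0566), or without GF ZT23 replicate 1 (0.94, adjusted p = 0.0532), 2 (0.91, adjusted p = 0.0533) or 4 (0.98, adjusted p = 0.0522). Sct, secretin, a hormone of enteroendocrine cells, ranged from 0.416 to 4.26 CPM (median 2.49) in SPF libraries and from 3.08 to 24.1 CPM (median 10.003) in GF libraries, a log2 ratio of -2.10 ± 0.26 (SE, adjusted p = 4.87e-06; matched -1.88 ± 0.35, adjusted p = 0.00450). Gcg (-0.051 ± 0.26 SE, adjusted p = 0.910) and Pyy (0.35 ± 0.27 SE, adjusted p = 0.369), hormone genes of L cells, did not pass. Of the short-chain fatty acid genes, 1 was higher and 3 lower of 19, a share near that of all genes, and none when matched. Slc5a8 and Slc16a1, transporters of short-chain fatty acids, and Ffar2, a receptor for them, did not pass, with Slc5a8 at 0.28 ± 0.17 (SE, adjusted p = 0.234), Slc16a1 at -0.065 ± 0.14 (SE, adjusted p = 0.768) and Ffar2 at 0.073 ± 0.16 (SE, adjusted p = 0.772).

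Mucus genes depended on which GF libraries entered. Muc2 ranged from 2356 to 8748 CPM (median 3725) in SPF libraries and from 1953 to 16238 CPM (median 5462) in GF libraries, a log2 ratio of -0.84 ± 0.23 (SE, adjusted p = 0.00752) that became -0.15 ± 0.24 (adjusted p = 0.755) in the matched comparison. Zg16, a lectin of the mucus that binds Gram-positive bacteria, went the other way, from -0.45 ± 0.19 (SE, adjusted p = 0.0756) over all libraries to -1.03 ± 0.24 (adjusted p = 0.0165) matched. Spink4, a goblet cell protease inhibitor, was higher by 1.401 ± 0.30 (SE, adjusted p = 0.00118) and gave 0.66 ± 0.29 (adjusted p = 0.175) matched. Of 30 goblet cell genes, 3 were higher and 8 lower over all libraries, and the 5 lower in the matched comparison shared 1 gene with them, Guca2a.

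Several tissue lists lost their calls in the matched comparison, in which colon position, Y-linked expression and the number of GF libraries change together. Proximal Hox genes had a median of -1.44 over all libraries and 0.13 matched. Smooth muscle genes were lower in 11 of 19 cases (median -0.60) and in 0 when matched (median 0.010). The adipose and mesothelium list fell in 14 of 15 genes (median -1.92), against 0 when matched (median -0.59). Lpl, the lipase of fat tissue, gave -1.64 ± 0.28 (SE, adjusted p = 0.000200) and -0.66 ± 0.34 (adjusted p = 0.243). Ribosomal protein genes had 17 of 26 higher in SPF over all libraries and 1 matched, Rps27 (1.01 ± 0.14 SE, adjusted p = 1.60e-05; matched 0.88 ± 0.17, adjusted p = 0.00668). Core clock genes had 1 called member, Cry2 (-0.39 ± 0.090 SE, adjusted p = 0.00230; matched -0.45 ± 0.15, adjusted p = 0.0768), and Nr1d1 (-0.50 ± 0.20 SE, adjusted p = 0.0623) and Dbp (-0.13 ± 0.21 SE, adjusted p = 0.708) did not pass.

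**Figure D4:**
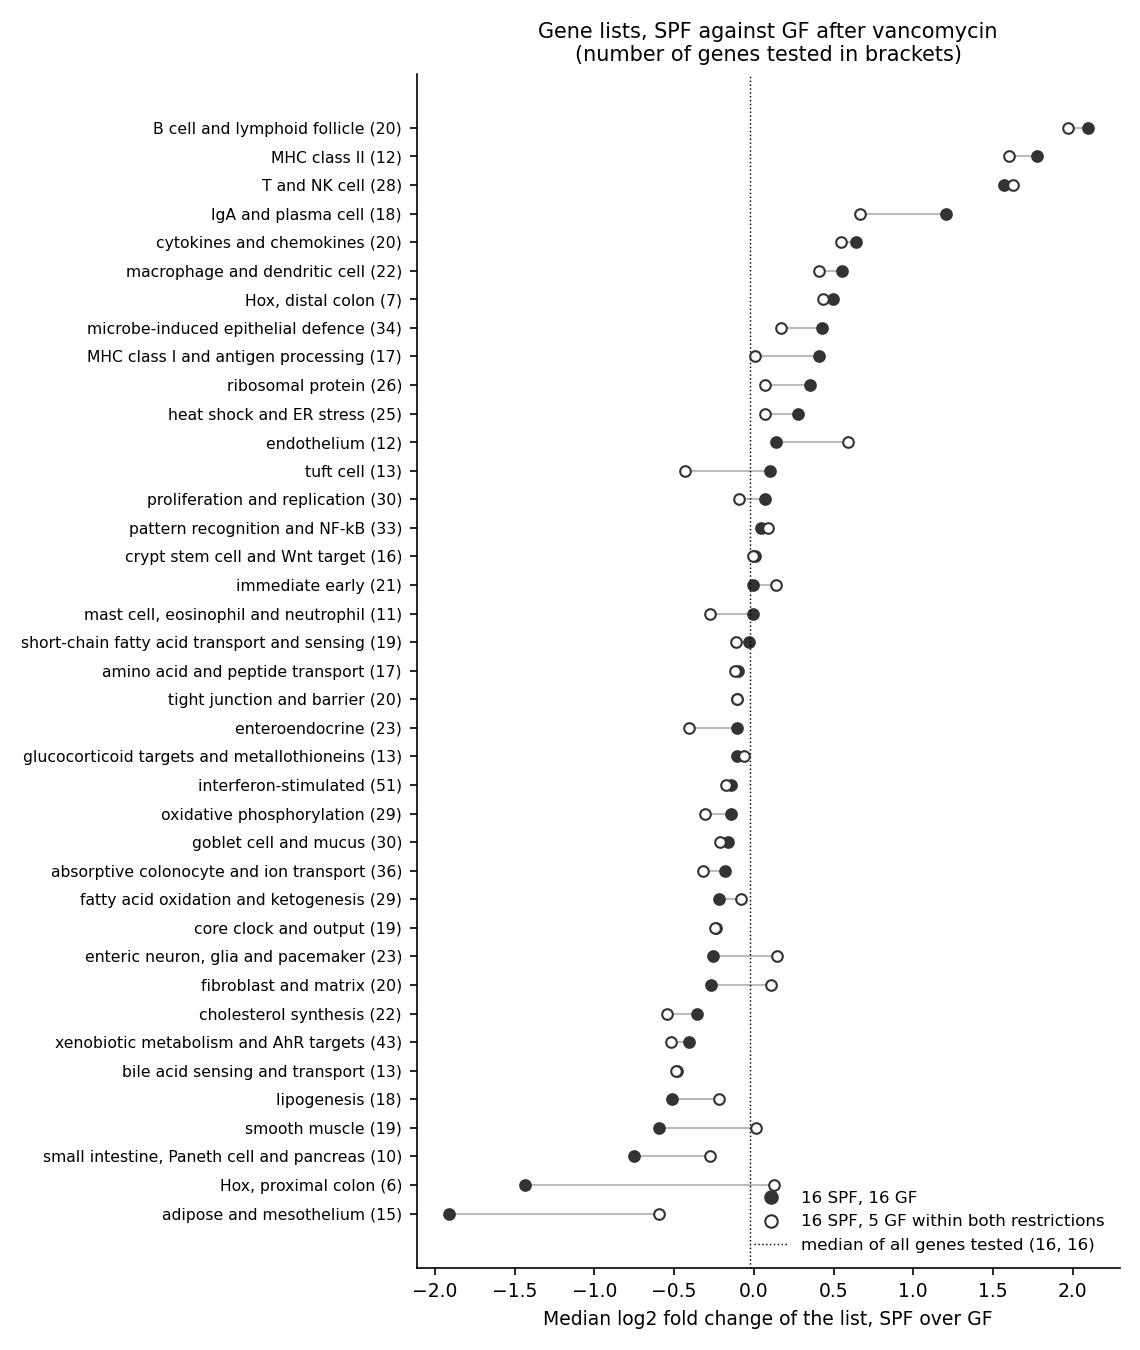
Median log2 fold change of SPF over GF (x axis) for 39 gene lists (y axis, with the number of genes tested), over the 16 SPF and 16 GF libraries (filled) and over the 16 SPF and 5 matched GF libraries (open), with a dotted line at the median of all genes. B cell, class II and T cell lists stay far to the right, cholesterol and xenobiotic lists stay to the left, and proximal Hox, smooth muscle and adipose lists move towards 0.

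By smallest p, the 12 genes highest in SPF colon were Rpl21, Rsph3b, Cd14, Miga1, Cnbd2, Mptx1, Fyb, Rnaset2a, Hmgb1, Bod1l, Anp32a and Chd9, and several of them have close copies in the genome. Rpl21, a ribosomal protein gene, ranged from 114 to 418 CPM (median 305) in SPF libraries and from 49.7 to 101 CPM (median 71.4) in GF libraries (1.85 ± 0.11 SE, adjusted p = 8.05e-12), while its pseudogene Rpl21-ps7 was at 18.9 CPM or more in every GF library and at a median of 0.174 CPM in SPF libraries. Summed, the pair had a median of 306 CPM in SPF and 96.6 CPM in GF libraries, so the summed level differed too. Rnaset2a, an RNase gene with the near-identical copy Rnaset2b, gave 0.92 ± 0.097 (SE, adjusted p = 4.92e-07), and the sum of both copies had medians of 227 and 138 CPM. Fyb, an adaptor of T cell and myeloid signalling, was higher by 0.83 ± 0.085 (SE, adjusted p = 2.96e-07; matched 0.61 ± 0.16, adjusted p = 0.0310). Miga1, which acts in mitochondrial fusion, ranged from 219.6 to 615 CPM (median 317) in SPF libraries and from 86.7 to 226 CPM (median 144) in GF libraries, and was higher by 1.33 ± 0.10 (SE, adjusted p = 1.91e-09; matched 1.15 ± 0.15, adjusted p = 0.000420). Cnbd2, a cyclic nucleotide-binding protein gene, separated the groups fully, with an SPF minimum of 55.0 and a GF maximum of 51.6 CPM.

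On the other side, the 12 genes lowest in SPF colon were Tpm3-rs7, Naaladl1, Slc16a5, Mt2, Mt1, Btbd3, Mier3, Parp4, Ifi202b, Neurl3, Dhrs11 and Cyp4f14. Naaladl1 (ENSMUSG00000054999), a peptidase-family protein of the intestinal brush border, ranged from 1.91 to 12.8 CPM (median 5.19) in SPF libraries and from 15.5 to 339.9 CPM (median 58.0) in GF libraries, and the groups did not overlap (-3.98 ± 0.39 SE, adjusted p = 1.84e-07; matched -3.10 ± 0.40, adjusted p = 0.000344). Slc16a5, a monocarboxylate transporter, ranged from 28.3 to 67.4 CPM (median 37.3) in SPF libraries and from 49.7 to 220.5 CPM (median 93.4) in GF libraries, a log2 ratio of -1.26 ± 0.13 (SE, adjusted p = 3.35e-07; matched -1.32 ± 0.16, adjusted p = 0.000111). Parp4, a poly(ADP-ribose) polymerase of vault particles, had no overlap either, with an SPF maximum of 65.6 and a GF minimum of 65.9 CPM (-0.63 ± 0.071 SE, adjusted p = 1.13e-06). Neurl3, an E3 ligase gene of epithelium, was lower, at -0.80 ± 0.095 (SE, adjusted p = 2.59e-06; matched -0.95 ± 0.16, adjusted p = 0.00199), and Dhrs11, a dehydrogenase gene, at -0.81 ± 0.097 (SE, adjusted p = 2.59e-06; matched -0.70 ± 0.11, adjusted p = 0.00167). Tpm3-rs7, a copy of the tropomyosin gene Tpm3, was at 5.73 CPM or less in SPF and up to 315 CPM in GF libraries. The groups overlapped, as the GF libraries of ZT11 ranged from 2.13 to 135 CPM (median 3.60). Tpm3 itself had medians of 409.7 CPM in SPF and 231 CPM in GF libraries. Summed, the pair had medians of 413 CPM in SPF and 378 CPM in GF libraries, so its 2 members differed in opposite directions and their sum much less.

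Taken by time of day, the number of called genes was 824 at ZT5 (4.85%), 193 at ZT11 (1.14%), 286 at ZT17 (1.68%) and 472 at ZT23 (2.78%), each from 4 against 4 libraries. These counts rested on single libraries. At ZT5 they went from 256 without GF replicate 1 to 1628 without GF replicate 4, and leaving out GF replicate 3 (390) or SPF replicate 1 (380), 2 (408), 3 (283) or 4 (348) lowered them. At ZT11 the count was 18 without GF replicate 3 and 582 without GF replicate 1, with 35 and 70 without GF replicates 2 and 4 and 123, 377 and 25 without SPF replicates 2, 3 and 4. At ZT17 it was 164 and 180 without SPF replicates 1 and 2 and 181 without GF replicate 2. At ZT23 it went from 55 without SPF replicate 2 to 1124 without GF replicate 3, and 8 other libraries moved it by over 1.5 times: without SPF replicates 1, 3 and 4 it was 79, 121 and 91, without GF replicates 1, 2 and 4 84, 59 and 183, and without GF ZT5 replicate 4 and GF ZT11 replicate 1 782 and 755. The GF libraries within both limits of the matched comparison were 2 of 4 at ZT11 and ZT17, 1 of 4 at ZT5 and 0 of 4 at ZT23, so time and makeup of the GF groups cannot be told apart.

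Only 12 genes were called in 1 direction at each of the 4 times, among them Cd14, Mptx1, Naaladl1, Slc16a5, Miga1, Cnbd2, Rpl21, Rsph3b and Rnaset2a. Cd14 was higher by 2.49 at ZT5, 1.96 at ZT11, 2.67 at ZT17 and 1.36 at ZT23, and Mptx1 by 3.11, 2.55, 3.96 and 2.96. Naaladl1 was lower at each time, at -4.39, -3.50, -3.90 and -4.12 on the log2 scale.

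The test of whether the SPF-GF difference changed with time called 20 genes (0.118%), led by the pseudogenes Actr3-ps, Rpl21-ps7, Rpl19-ps5 and Rpl19-ps10. Here single groups were on or off. Rpl19-ps5 and Rpl19-ps10 passed the count filter only through the SPF libraries of ZT23, at 22.8 to 27.6 and 9.25 to 12.8 CPM. Elsewhere they were at 0.238 CPM or less, so the group that let them in fixed their result. Summed with Rpl19, the SPF group means were 431 CPM at ZT23 and 364 to 436 CPM at other times. Actr3-ps was at 0.581 CPM or less in the 4 SPF libraries of ZT17 and at 30.9 CPM or more in the other 12. Its parent gene Actr3 had SPF values of 234 to 433 CPM, and 355 to 433 CPM at ZT17. Summed, the pair had SPF group means of 383 CPM at ZT17 and 345 to 380 CPM at the other times, so the sum differed much less. Rpl21-ps7 was at 35.8 to 53.7 CPM in the 4 SPF libraries of ZT23 and at 0.396 CPM or less in the other 12. Itln1 and Mptx2, defence genes of which the second was picked after its values were seen, had such levels too. Itln1, an intelectin that binds microbial sugars, had 2.08 to 2.33 CPM in the 4 SPF libraries of ZT17 and 2.66 CPM in 1 of ZT11 (replicate 2), against 257 CPM or more in the other 11. Its log2 difference was -7.57 at ZT17 and between -0.83 and -0.48 at the other times (adjusted p of the change with time 0.00878). Mptx2, a relative of Mptx1, had 0.581 CPM or less in the 4 SPF libraries of ZT17 and 102 to 353 CPM in those of ZT23, with 3.25 as its log2 difference at ZT5 and -7.49 at ZT17 (adjusted p 0.0212). In PBS libraries of SPF mice the same on or off levels appeared at other times: Itln1 was between 0.780 and 8.29 CPM in all 4 at ZT11 and ranged from 4.52 to 2528 CPM at ZT17. The lowest GF library held 204 CPM after vancomycin and 293 CPM after PBS. Without any 1 of the 4 SPF libraries of ZT17 the count of such genes was 9, 8, 7 or 8, without GF ZT11 replicate 1 it was 176, without GF ZT17 replicate 1 12, and without GF ZT5 replicate 3 or SPF ZT23 replicate 3 13.

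The PBS libraries give an SPF-GF contrast without the antibiotic. A fit of all 64 libraries over 17469 genes tested whether the SPF-GF difference after vancomycin departed from that after PBS, and called 0 genes (0.00%) in edgeR, with 1715 at an unadjusted p under 0.05, while DESeq2 called 16. Smallest of all was the p of the histone gene H1f2, with a departure of -0.69 ± 0.14 (adjusted p = 0.166). Of the 848 genes called over all libraries and when matched, 840 had the same sign after PBS. The PBS libraries stand in the same 2 tables, so housing and table cannot be told apart there either. Of 17000 genes, 4374 were called after vancomycin in the fit of 32 libraries and 4144 after PBS in the fit of 64. Both fits called 2347 of them with the same direction. Makeup differed between treatments as well. List medians after vancomycin and after PBS, from these same 2 fits, were -1.92 and -0.0020 for adipose and mesothelium. For proximal Hox genes the medians were -1.44 and -0.12. They were 1.07 and 0.093 for Y-linked and 2.09 and 0.44 for B cell genes. Treatment and makeup cannot be told apart here.

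For single genes the values from that fit were as follows. Cd14 differed by 2.12 ± 0.16 after vancomycin and 1.76 ± 0.16 after PBS. Ang4 differed by 3.21 ± 0.64 and 5.21 ± 0.69 (adjusted p of the departure = 0.456), and Mptx1 by 3.15 ± 0.28 and 4.34 ± 0.29 (adjusted p of the departure = 0.281). Duoxa2 had 2.10 ± 0.30 after vancomycin and 3.26 ± 0.31 after PBS (adjusted p = 0.402). These 3 secreted or oxidase-related genes had smaller estimates after vancomycin, and none of the departures passed. Genes of lymphocytes, of class II and the chemokine gene Cxcl9 had larger estimates after vancomycin: Ms4a1 2.15 ± 0.51 against 0.73 ± 0.50 after PBS, Cd74 1.82 ± 0.44 against 0.49 ± 0.43, and Cxcl9 2.44 ± 0.47 against -0.31 ± 0.48 (adjusted p of the departure 0.504, 0.485 and 0.228). Makeup of the libraries, which differed between treatments as given above, cannot be told apart from treatment in these values. Mt2 gave -2.07 ± 0.23 and -1.09 ± 0.23 (adjusted p = 0.363), Cyp4f14 -2.40 ± 0.27 and -2.90 ± 0.28, and Nsdhl -0.42 ± 0.10 and -0.68 ± 0.10. Slc7a9, a subunit of the cystine and basic amino acid transporter, gave -1.13 ± 0.31 after vancomycin and -3.14 ± 0.34 after PBS, a departure of 2.01 ± 0.45 (adjusted p = 0.228). Scnn1b, a subunit of the epithelial sodium channel, gave -0.22 ± 0.28 and -1.86 ± 0.29 (adjusted p = 0.228).

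**Figure D5:**
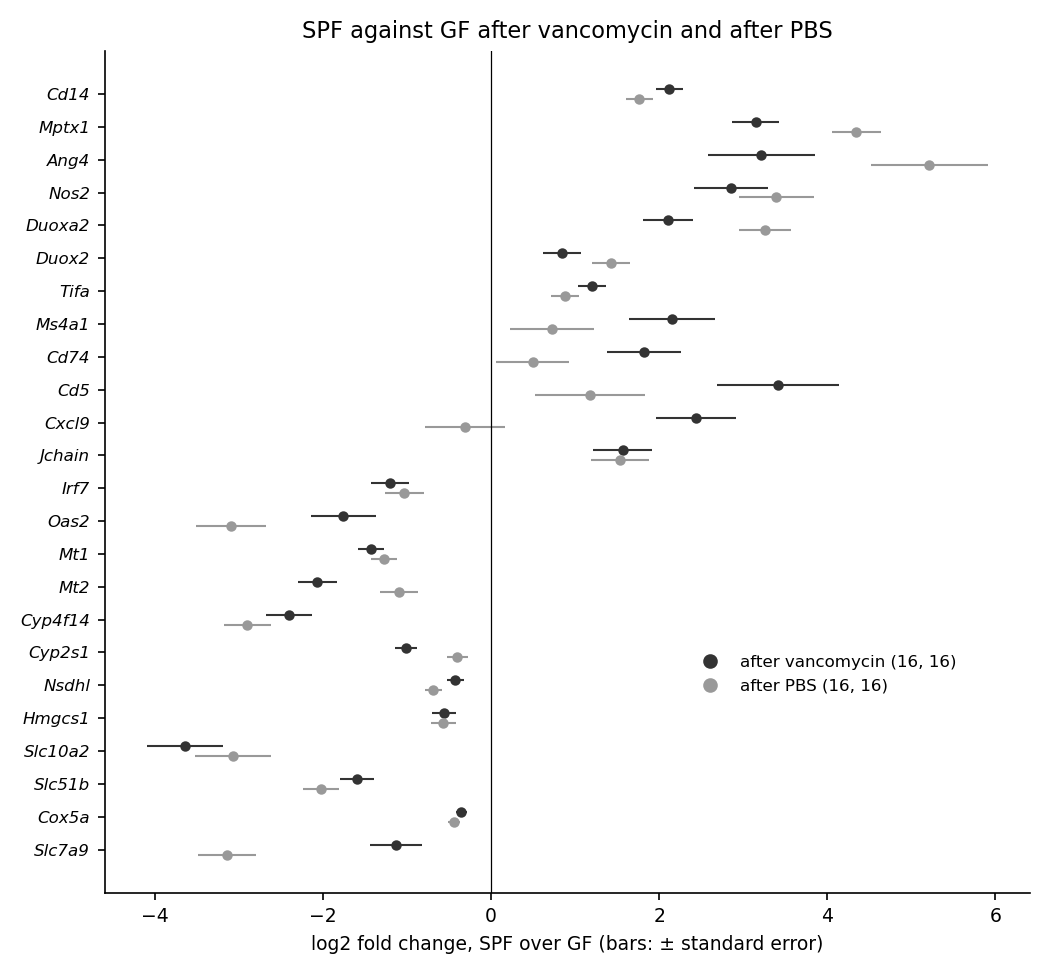
Log2 fold change of SPF over GF (x axis, ± SE) for 24 genes (y axis) after vancomycin (dark, 16 against 16 libraries) and after PBS (grey, 16 against 16 libraries), from 1 fit of all 64 libraries. All of these genes except Cxcl9 have the same sign under both treatments, and no difference between dark and grey passed the adjusted threshold.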

How the data were processed

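Poly(A) RNA of whole colon was sequenced as single-end reads. Per the submitters' processing notes, the authors used Trim Galore 0.6.2, cutadapt 3.5 and Salmon with build GRCm39. The authors deposited estimated counts for 35534 genes in 1 table for SPF and 1 for GF libraries, per the file headers with gene names. By their names the tables are normalized, by a method not given in the sources used here. In the values no depth scaling was visible, since the smallest common value lay near 1 in every library.

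The tables were joined by gene identifier, values rounded to whole numbers, and all 32 vancomycin libraries scaled together by TMM. Genes with at least 10 counts in at least 4 libraries were kept (17000). The main test was edgeR 4.0.16 (R 4.3.3), a quasi-likelihood fit of 8 group means, with the SPF-GF contrast averaged over 4 times and at each time, an F test of housing by time, and Benjamini-Hochberg adjustment at 0.05. A fit of all 64 libraries tested whether the SPF-GF difference after vancomycin departed from that after PBS. The SE is the log2 fold change divided by the root of F. The SE is not reliable for values near 0. Alternatives were DESeq2 1.42.0, limma 3.58.1 (voom), RLE and upper quartile factors, other filters, a test against a fold of 1.5, group sums, a replicate block, covariates for colon position, Y-linked, B cell and smooth muscle genes, and each library left out. No 2 libraries agreed within sampling noise: the lowest chi-square per gene between replicates was 15.6.

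Named genes were the 12 called genes of smallest p in each direction (mean count of at least 50 in 1 housing group, the same sign at all 4 times, no predicted genes), in each list the 4 called members of smallest p and the 2 of highest mean, a list of key genes, and the 4 genes of smallest p per time and test. Outside that rule, Cxcl12, Gbp9, H1f2, Mptx2, Oas2, Oasl2, Scd1, Sigirr, Slc9a3 and Sqle were picked after their values were seen. The members and the gene lists were chosen with earlier results of these data known. Coordinates and sequences were not used here, and some genes are not reported here. The fits were tested on simulated data.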

Additional observations from a re-analysis of the deposited data

Results flagged for a closer look

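Within groups of 4 libraries, single libraries stood far from the other 3 in 11 of 128 groups and measures tested. The cutoff is passed by about 1 in 20 by chance for normal and unrelated values. Here CPM values were not log-transformed and some measures were related, so an excess over chance was not shown. GF ZT5 replicate 2 had a total of 12073600 estimated counts against 14682300 to 14892600 in the others. Among SPF libraries, Cd14 was at 232 CPM in ZT5 replicate 4 against 150.1 to 164, Ang4 at 198 CPM in ZT23 replicate 1 against 54.8 to 63.6, and Mt2 at 103 CPM in ZT17 replicate 4 against 36.2 to 41.4. GF ZT17 replicate 1 was high in 3 defence genes, with Mptx1 at 600.0 CPM (others up to 148), Mptx2 at 99.0 CPM (others up to 24.01) and Nos2 at 7.22 CPM (others up to 1.58). GF ZT23 replicate 3 had Mptx1 at 800.1 CPM (others up to 154) and Mptx2 at 169.9 CPM (others up to 31.3), so the pair of pentraxin genes was high together in the same 2 GF libraries. Ang4 was at 19.2 CPM in GF ZT23 replicate 1 against 1.10 to 3.45, and Slc10a2 at 149.9 CPM in GF ZT11 replicate 1 against 11.9 to 31.5.

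The SPF-GF difference varied with time of day in 20 genes by the F test of housing by time, with the on and off levels of Actr3-ps, Rpl21-ps7, Itln1 and Mptx2 given above.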

How the results depend on the processing

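Over the 4 times the count of called genes was 4425 with RLE factors, 4389 with upper quartile factors, 4924 with DESeq2, 4017 with limma-voom, 4136 without a filter and 4054 with a stricter one. It fell to 686 with a B cell, 974 with a Y-linked and 1204 with a position covariate (4075 with smooth muscle), 1122 with the 5 matched GF libraries, 1054 by position alone, 1719 by Y-linked expression alone, 606 against a fold of 1.5 and 595 with the 4 libraries of a group summed. At ZT5 it was 32, 9 and 5 with the B cell, Y-linked and position covariates and 1680 with DESeq2. At ZT11 it was 75 with the B cell and 360 with the position covariate, 905 with DESeq2 and 96 without a filter. At ZT17 it was 679 with DESeq2 and 190 with the Y-linked covariate. At ZT23 it was 6, 6, 7 and 164 with the B cell, Y-linked, position and smooth muscle covariates, 1551 with DESeq2 and 292 without a filter. The test of housing by time called 239 with DESeq2 and 11 with the stricter filter. With DESeq2, the SPF-GF difference after vancomycin departed from that after PBS in 16 genes. The cause was not tested for any of these. The restricted and summed fits also hold fewer libraries, and the restricted fits differ in makeup too.

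Leaving out 1 library gave 3931 to 4898 over the 4 times, 256 to 1628 at ZT5 and 18 to 582 at ZT11. It gave 164 to 341 at ZT17, 55 to 1124 at ZT23 and 7 to 176 for housing by time. For the departure of the SPF-GF difference after vancomycin from that after PBS it gave 0 to 3. That 3 came without SPF vancomycin ZT11 replicate 3, and 1 each without SPF vancomycin ZT5 replicate 1, SPF PBS ZT17 replicate 1 and GF PBS ZT11 replicate 3.

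Replicate numbers did not pair the libraries: over 16 pairs of same-numbered SPF and GF libraries the correlation of deviations from the group means ran from -0.21 to 0.24, over 0.1 in 5. With the replicate number as a block the counts were 3971 over the 4 times, 139 at ZT23 and 10 for housing by time.

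Of 130 called genes with recomputed values, 25 passed in all 16 other settings and all 32 fits without 1 library. Among called genes the sign turned for B4galnt2 with the position covariate (0.18), for C1qa with the B cell covariate (-0.0069), and for Insl5 (-0.068) and Scd1 (0.68) in the matched libraries. Reg3b (5.17) and Reg3g (3.01), not called over all libraries, turned sign and passed with the position covariate. The cause was not tested. Genes with at least 10 counts in fewer than 4 of the 32 libraries were not tested in the main fit.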

Other observations

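Of 25 heat shock and endoplasmic reticulum stress genes, 9 were higher and 0 lower in SPF colon after vancomycin (median log2 fold change 0.28), against 1 higher in the matched comparison (median 0.068). Of 30 proliferation genes, 2 were higher and 0 lower, with none matched, and the medians were 0.071 and -0.092. Crypt stem cell and Wnt target genes had 2 higher and 2 lower of 16, again with none matched. The tuft cell list had 1 higher and 1 lower of 13 over all libraries and 2 lower when matched, where its median was -0.43. Immediate early genes, which respond within minutes to handling and other stimuli, had 4 higher and 3 lower of 21, and 2 higher when matched. Enteric neuron, glia and pacemaker genes had 3 lower of 23 and none matched. Slc3a1, the heavy subunit that pairs with Slc7a9 in cystine uptake, gave -1.68 ± 0.36 (SE, adjusted p = 0.00128) over all libraries and -1.05 ± 0.47 (adjusted p = 0.184) matched.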
